A study of Homo sapiens with 19 samples.

Results

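T84 is an established human colon carcinoma line grown from a lung metastasis, and it is described here against the 4 other microsatellite stable (MSS) lines of the same series. T84 was measured on 1 array of the 19, labelled E1, and the set it is compared with is 8 arrays of the lines HT29, CACO2, SKCO1 and HCC2998, labelled E1 and E2 in each. The series design describes duplicates in growth and in arrays, so the arrays are called cultures here, but the sample labels do not say whether E1 and E2 are independent cultures. Microsatellite stable means that short DNA repeats do not accumulate the length changes that follow loss of mismatch repair. The 10 other arrays, of 5 microsatellite unstable (MSI) lines (HCT116, LIM2405, LS174T, RKO and SW48), were used to place T84 among all 10 lines and, in 1 alternative, to estimate the spread between duplicates. All 9 MSS arrays come from untreated cells in exponential growth in DMEM medium with serum, and the labels give no genotype beyond the line and its repeat status. Each line is 1 cell line and not a sample of patients.

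T84 has no duplicate among the 19 arrays. Its spread between cultures was therefore borrowed from the duplicates of the 4 other lines. Every p-value below measures only that borrowed spread, except in the fit with 1 value per line. There it measures the spread between the 4 other lines. A difference between T84 and the other lines cannot be told apart from a difference particular to the 1 T84 culture. Values are log2 signals that the authors made with RMA, and 5.67 is the median of all values, under which a probe set is dim. Differences are T84 minus the mean of the 4 other line values, with the SE of the fit. A gene was called higher or lower where its adjusted p in limma was under 0.05. T84 was said to stand apart where the gene was called, its array lay outside all 8 other arrays, and its value was at least 1 log2 from the nearest line mean.

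T84 cells form polarised, crypt-like monolayers and are a standard model of intestinal chloride secretion. In such epithelium, vasoactive intestinal peptide, prostaglandins, acetylcholine and the bacterial heat-stable toxin act through receptors that raise cyclic nucleotides or calcium, and chloride leaves the cell through CFTR. A second system that matters below is the interferon response. Interferons bind surface receptors, JAK kinases signal to the nucleus, and a complex that holds IRF9 binds a short element in the promoters of antiviral genes. Many of these genes can also be induced by interferon regulatory factors such as IRF7 downstream of sensors of foreign nucleic acid.

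Stretches upstream of 6 antiviral genes in which T84 stood apart are shown because they carry that element in its simplest form. They are read on the strand of the gene from RefSeq windows of assembly GRCh38.p14, and capitals mark each match to GAAANNGAAA, or on the other strand TTTCNNTTTC, including overlapping matches.
ISG15: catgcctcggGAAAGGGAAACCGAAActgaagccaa
IFI44L: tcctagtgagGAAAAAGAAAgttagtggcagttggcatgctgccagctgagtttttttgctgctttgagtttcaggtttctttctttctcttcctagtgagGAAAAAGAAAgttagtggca
IFIT1: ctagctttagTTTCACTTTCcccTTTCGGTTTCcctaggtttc
IFI27: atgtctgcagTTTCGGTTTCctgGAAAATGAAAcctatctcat
RTP4: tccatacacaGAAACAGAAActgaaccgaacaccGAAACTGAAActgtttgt
GBP1: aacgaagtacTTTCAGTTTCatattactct
These stretches lie at chr1:1013374-1013409 (+) for ISG15, chr1:78620274-78620394 (+) for IFI44L, chr10:89392497-89392539 (+) for IFIT1, chr14:94110618-94110660 (+) for IFI27, chr3:187368333-187368384 (+) for RTP4 and chr1:89065316-89065345 (-) for GBP1. The first match begins 113 bases before the start of ISG15, 164 before that of IFI44L, 116 before that of IFIT1, 108 before that of IFI27, 42 before that of RTP4 and 127 before that of GBP1. Over windows from 250 bases before to 50 after each start, 3.57% of all 35116 windows held a match, and so did at least 1 window of 4.38% of 27305 genes. Of the 20 antiviral genes that stood apart and have a window, 14 (70%) held one. Of the 22 antiviral genes that did not stand apart and have a window, 16 (72.7%) held one, so the match did not sort these genes from one another. A match is a run of letters and not a measured site.

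Across all 19775 genes, 1311 were higher in T84 (6.63%) and 1342 were lower (6.79%). T84 stood apart in 2.12% of genes, as higher in 249 (1.26%) and as lower in 170 (0.860%). Without the SKCO1 line, whose duplicates were the closest of the 4, 840 genes were higher and 821 lower. The number of genes with a gap of 1 log2 to every other line, taken from the first array of each line, was 284 above and 201 below in T84. It was 254 and 240 in HCC2998, 261 and 188 in HT29, 511 and 223 in SKCO1, and 886 and 458 in CACO2. T84 was therefore not the most separate MSS line by this count. Across genes, which are not independent replicates, T84 correlated at 0.944 with HCC2998, 0.935 with HT29, 0.926 with SKCO1 and 0.905 with CACO2, while duplicates of 1 line correlated at 0.983 to 0.996.

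With the spread between the 4 other lines in place of that between cultures, 3 genes were higher (0.0152%) and 0 lower in limma. At an unadjusted p under 0.05 there were 724 higher and 461 lower genes in that fit. In the 3 genes, STYXL2, RNF217 and NPTX2, the other MSS lines were almost equal and dim, as they also were in genes that did not pass, such as OLFM4 and CHRM1. T84 was outside all 4 other line values in many more genes, above them in 23.6% and below them in 17.9%.

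Colon epithelial markers were present in T84, with all 14 of the list over the median of all values. Their mean was 12.46 log2 in T84 and 9.52 to 12.41 in the other MSS arrays. The highest was KRT18 at 14.33 and the lowest was the homeobox factor CDX2 at 9.61 in T84. Immune markers had a mean of 5.47 in T84 and 5.56 to 6.15 in the others. In T84 they ran from their defining gene PTPRC at 3.92 to LYZ at 7.42, with 4 of 12 over the median. Fibroblast and smooth muscle markers had means of 5.57 and 5.55 to 5.84, and endothelial markers of 5.13 and 4.86 to 5.47. In T84, 4 of 12 and 4 of 10 of these lay over the median, the highest being COL1A1 at 7.65 and ESAM at 6.54. The array controls gave 1 sign of RNA quality that sets T84 apart. The 3′ minus 5′ signal of ACTB was 1.90 log2 in T84 and 0.43 to 1.53 in the 8 other arrays, and that of GAPDH was 0.67 and -0.05 to 0.74. The part of this in the differences below was not tested, and arrays of LS174T, an MSI line, gave 1.81 and 2.81.

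The largest gaps above the other lines were in genes that the 4 other lines barely expressed. STYXL2, an inactive member of the dual-specificity phosphatase family, had 11.87 log2 in T84. The 8 other arrays ran from 3.68 through a median of 3.98 to 4.15. The difference was 7.90 ± 0.18 (SE, limma adjusted p = 5.52e-06), and all 5 MSI lines also lay low, at 3.96 to 4.32. NPTX2, a pentraxin of synapses, had 8.41 in T84 against 3.87 to 4.08 in the other MSS arrays and 3.89 to 4.17 in the MSI lines. Both genes were bright in T84 alone among the 10 lines.

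RNF217, a ubiquitin ligase, had 8.57 log2 in T84 and 3.55 to 4.05 in the other MSS arrays. TOX2, an HMG-box transcription factor, had 8.63 in T84 and 3.60 to 4.20 in the other MSS arrays. Against MSI lines these genes do not mark T84, since RNF217 reached 9.17 and TOX2 10.16 in at least 1 of them. T84 was number 3 of 10 lines for RNF217 and number 5 for TOX2. The other probe sets of RNF217 differed by 0.27 to 1.98, less than the 4.83 of the one that represents it.

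CHST7, a sulfotransferase of glycosaminoglycans, had 9.99 log2 in T84 and 5.02 to 6.12 in the other MSS arrays. GALNT18, of the family that starts O-linked glycans, had 9.64 in T84 and 4.89 to 6.09 in the others, while its other probe set differed by 0.07. GXYLT2, which adds xylose to glucose on Notch, had 9.62 in T84 and 4.19 to 6.74 in the others. SLFN13, a ribonuclease of transfer and ribosomal RNA, and ZNF736, a zinc finger gene, completed the 12 with XAF1, IFI44L and OAS2 of the interferon response, given below. Their differences were 4.0 ± 0.18 for SLFN13 and 3.60 ± 0.16 for ZNF736 (SE, adjusted p = 7.84e-05 each), and the other probe sets of ZNF736 differed by 0.05 to 0.53.

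**Figure D1:**
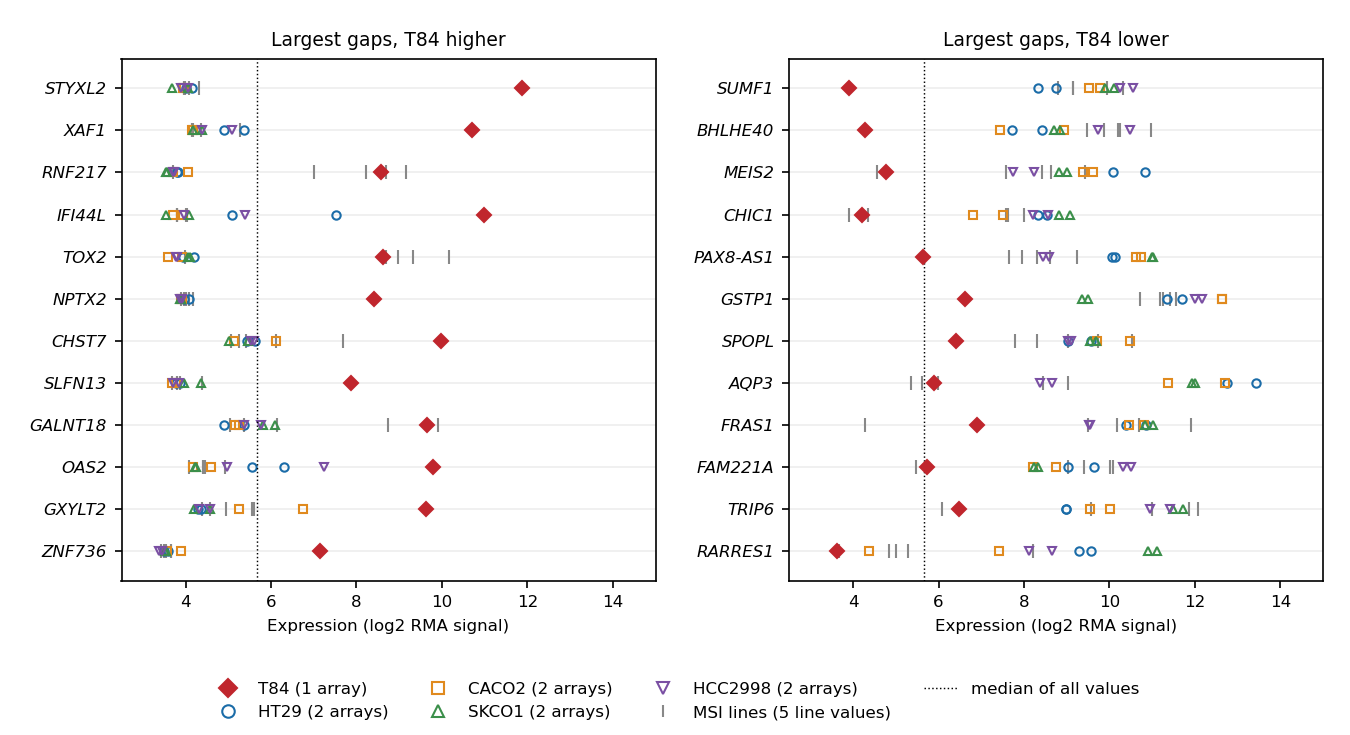
The 12 genes in each direction with the largest gap between T84 and the nearest other MSS line. The x axis is log2 RMA signal, each symbol is 1 array of an MSS line, grey ticks are the values of the 5 MSI lines, and the dotted line is the median of all values. STYXL2 lies at 11.87 in T84 and SUMF1 at 3.91, each outside all other arrays shown, while MSI lines reach or pass T84 in genes such as RNF217 and TOX2.

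The largest gaps below were in genes that all 4 other lines expressed. SUMF1, the enzyme that activates sulfatases, had 3.91 log2 in T84 and 8.32, 9.83 and 10.55 as the lowest, median and highest of the other arrays. It differed by -5.74 ± 0.22 (SE, adjusted p = 3.89e-05), and the MSI lines lay at 8.80 to 10.31, so T84 alone of the 10 lines was at the level of a dim probe set. BHLHE40, a transcriptional repressor tied to the circadian clock, had 4.27 in T84 and 7.45, 8.77 and 10.48 in the others. It too was lowest in T84 of all 10 lines, with MSI lines at 9.48 to 10.97, while its other probe set differed by -0.77.

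GSTP1, the pi-class glutathione transferase, had 6.61 log2 in T84. The lowest, median and highest of the other arrays were 9.35, 11.85 and 12.64, and the line means were 11.52 in HT29, 12.64 in CACO2, 9.42 in SKCO1 and 12.08 in HCC2998. The difference was -4.81 ± 0.17 (SE, adjusted p = 3.57e-05), the nearest line was SKCO1, and the lowest MSI line was at 10.71. PAX8-AS1, an antisense RNA, had 5.64 in T84 and 8.44 to 11.03 in the other MSS arrays, with MSI lines at 7.65 to 9.25. SPOPL, an adaptor of cullin ubiquitin ligases, had 6.41 in T84 and 9.03 to 10.49 in the others. These 3 genes were also lowest in T84 among all 10 lines.

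The 7 remaining genes with large gaps below were AQP3, MEIS2, CHIC1, FRAS1, FAM221A, TRIP6 and RARRES1. At least 1 MSI line lay below T84 for the first 6. MEIS2, a homeobox factor, had 4.77 log2 in T84 and 7.75 to 10.83 in the other MSS arrays, with an MSI line at 4.56. TRIP6, an adaptor at cell adhesions, had 6.47 in T84 and 8.99 to 11.72 in the others, with an MSI line at 6.08. FRAS1, of the basement membrane, differed by -3.53 on a probe set whose probes can match several transcripts, and over sets without such probes by -0.98 (adjusted p = 0.0782). RARRES1, a retinoic acid-responsive gene, had 3.63 in T84 and 4.38 to 11.12 in the others, and its call was lost without SKCO1 (adjusted p = 0.0576).

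The interferon response held the largest count of the lists described here. Of 51 measured antiviral effectors, 36 were higher in T84 and 0 lower, against 6.63% and 6.79% of all genes. T84 stood apart as higher in 22 of them and was the highest of all 10 lines in 36, against 9.32% of all genes. The median difference over the 51 was 2.42 log2, against 0.02 over all genes. With the spread between lines, 0 of the 51 passed in limma and 12 had an unadjusted p under 0.05. At an unadjusted p under 0.05 in the fit over cultures, 45 were higher and 1 was lower.

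MX1, a GTPase that blocks virus replication, had 12.47 log2 in T84. The other cultures had 8.06 and 8.52 in HT29, 4.62 and 6.24 in CACO2, 5.10 and 5.75 in SKCO1, and 11.36 and 9.23 in HCC2998. The difference was 5.11 ± 0.79 (SE, adjusted p = 0.00823), and T84 lay above every other array. XAF1, an interferon-induced antagonist of XIAP, had 10.71 in T84 and 4.14, 4.38 and 5.36 as the lowest, median and highest of the other arrays. IFI44L had 10.98 in T84, against 5.08 and 7.52 in HT29, 3.71 and 3.93 in CACO2, 4.07 and 3.53 in SKCO1, and 5.38 and 3.96 in HCC2998. XAF1 differed by 6.14 ± 0.27 (SE, adjusted p = 7.84e-05) and IFI44L by 6.33 ± 0.82 (SE, adjusted p = 0.00416), and every other line mean lay under 5.67 except that of HT29 for IFI44L, at 6.30.

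The oligoadenylate synthetases make the messenger that activates RNase L. OAS2 had 9.78 log2 in T84 and 4.17, 4.78 and 7.24 as the lowest, median and highest of the other arrays. OAS1 had 11.14 in T84 and 7.97, 9.35 and 10.23 in the others, and OAS3 had 11.91 and 7.93, 9.13 and 10.85. T84 stood apart in all 3, by gaps to the nearest line of 3.67 for OAS2, 1.04 for OAS1 and 1.58 for OAS3. In MSI lines OAS1 reached 11.04, so its lead over them was small.

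The IFIT proteins bind viral RNA. IFIT1 had 11.16 log2 in T84, against 9.65 and 8.28 in HT29, 8.50 and 6.74 in CACO2, 4.73 and 4.68 in SKCO1, and 9.58 and 8.76 in HCC2998. IFIT2 had 10.24 in T84 and 5.42 to 9.81 in the others, and IFIT3 had 10.45 and 6.36 to 9.17. Their adjusted p values were 0.0164, 0.021 and 0.0294, and each call was lost without the SKCO1 line (adjusted p up to 0.109). HERC6, IFI6, ISG15 and PARP9 also lost theirs without it. ISG15, a ubiquitin-like modifier, had 12.72 in T84 and 6.65, 10.16 and 11.87 as the lowest, median and highest of the others.

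The IFITM proteins block virus entry at membranes. IFITM1 had 13.50 log2 in T84, against 8.15 and 7.52 in HT29, 6.85 and 6.47 in CACO2, 9.65 and 9.82 in SKCO1, and 12.16 and 11.98 in HCC2998. It differed by 4.42 ± 0.25 (SE, adjusted p = 0.000176). IFITM3 had 11.65 in T84 and 5.97 to 10.67 in the other MSS arrays, but at least 11.24 in every MSI line, and T84 was number 5 of 10 lines. The IFITM3 probe set is of the kind whose probes can match near-identical genes, as are those of GBP1, IFI16 and SP110. IFITM1, ISG15 and IRF7 have no probe set left once sets of this and similar kinds are dropped. Their differences were therefore not checked without such sets.

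IFI27 had 13.18 log2 in T84, against 12.34 and 11.45 in HCC2998, 10.50 and 10.67 in HT29, and 4.71 to 5.43 in CACO2 and SKCO1. It was bright in 3 lines and dim in the other pair. RTP4 had 7.64 in T84 and 3.92 to 4.70 in the other MSS arrays, SAMD9L had 7.41 and 4.07 to 4.65, and GBP1, an interferon-induced GTPase, had 6.64 and 4.02 to 4.47. These 3 genes were dim in all 4 other lines. SAMD9, a neighbour and relative of SAMD9L on chromosome 7, had 10.32 in T84 and 3.59 to 8.43 in the others, with HT29 nearest. IFI16, a nuclear DNA sensor, had 8.31 in T84 and 3.69 to 5.49 in the other MSS arrays, and 11.62 in the highest MSI line.

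Duplicate cultures of the other lines differed more in these genes than in genes as a whole. In HCC2998 the first culture was above the second in 44 of the 51 effectors. The median difference was 0.55 log2, against a median absolute difference of 0.17 over all genes. The first culture was also above the second in 31 effectors in HT29, 31 in CACO2 and 27 in SKCO1. Their median differences were 0.15, 0.35 and 0.04 log2. The median absolute difference of the effectors was 0.33 in HT29, 0.41 in CACO2 and 0.16 in SKCO1, against 0.20, 0.23 and 0.13 over all genes. T84 has 1 culture, so how far its own level moves between cultures is not known. That culture is labelled E1, while the other lines enter as means of E1 and E2. With culture number as a term in the fit, the median difference of the effectors was 2.26 log2, against 2.42 without it. The part of a shift shared by first cultures was not otherwise tested. The count of effectors called higher was 24 without the SKCO1 line and at most 43 over all alternatives, and the count standing apart ran from 15 to 29. The median difference ran from 2.17 to 2.76.

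Not every effector followed. The 15 that were not called included ISG20, an exonuclease, at 8.24 log2 in T84 against 9.66 in HT29 and 11.74 in HCC2998, and GBP2 at 6.21 in T84 and 7.34 in HT29. RSAD2, which encodes viperin, lay at 7.30 in T84 and 7.56 in HCC2998. These 3 genes were chosen after their values were seen. MX2 differed by 2.39 without passing (adjusted p = 0.0983).

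**Figure D2:**
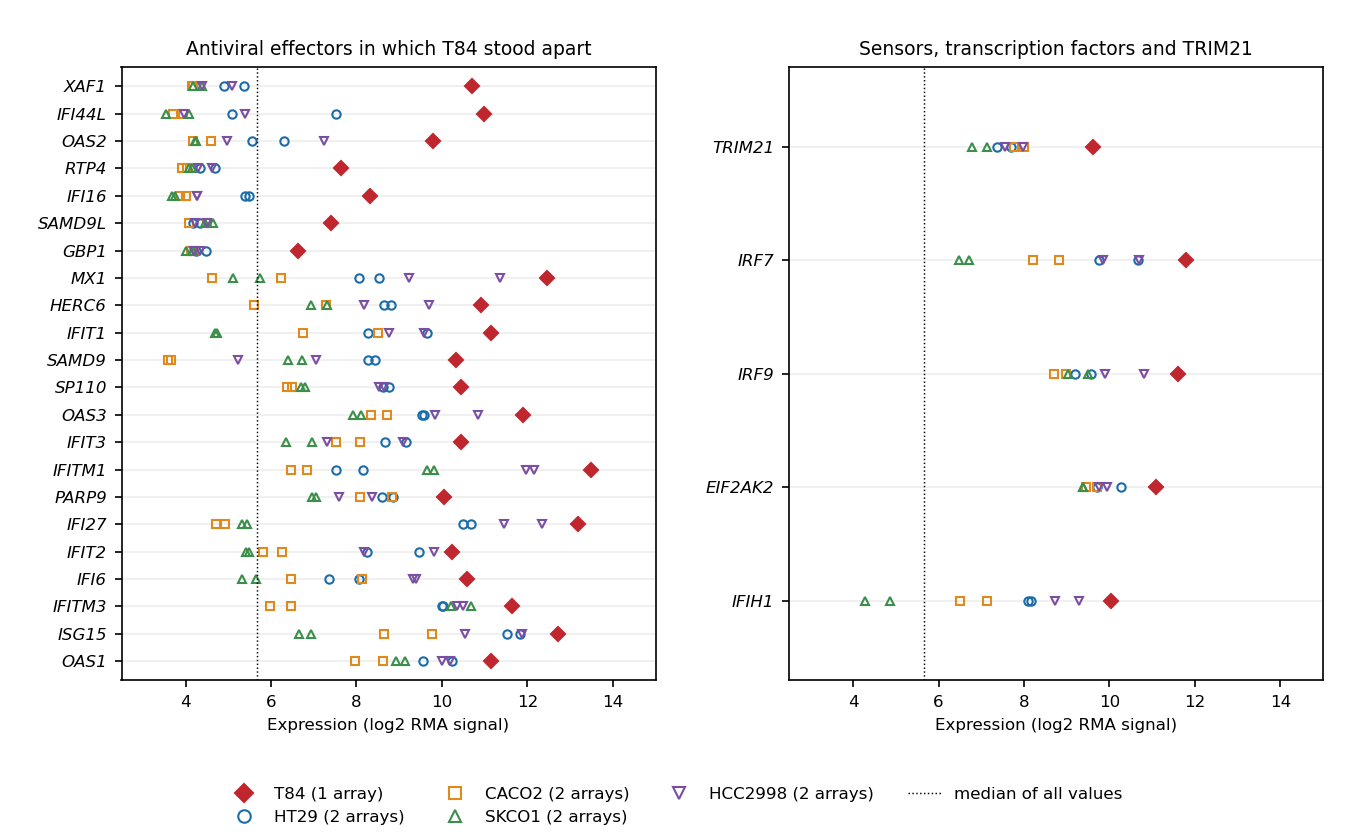
Interferon-response genes in which T84 stood apart, with 22 antiviral effectors on the left and 2 sensors, 2 transcription factors and TRIM21 on the right, in order of the gap to the nearest line. The x axis is log2 RMA signal and each symbol is 1 array. T84 lies right of all 8 other arrays in each gene, while the nearest single array in MX1 (11.36) and ISG15 (11.87) is of HCC2998.

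The sensors, transcription factors and inhibitors of the response had smaller median differences, of 0.50, 0.50 and 0.21 log2. Of 14 nucleic acid sensors and adaptors, 5 were higher in T84 and 0 lower, against 6.63% and 6.79% of all genes. T84 stood apart as higher in 2 of them, against 1.26% of all genes. IFIH1, which senses long double-stranded RNA, had 10.04 log2 in T84 and 4.27, 7.62 and 9.30 as the lowest, median and highest of the others, a difference of 2.90 ± 0.32 (SE, adjusted p = 0.00224). EIF2AK2, the RNA-activated kinase PKR, had 11.10 in T84 and 9.38 to 10.26 in the others. Over the mean of all probe sets of a gene, neither IFIH1 nor EIF2AK2 stood apart, though both were still called higher. MYD88, the adaptor of Toll-like receptors, was higher by 1.46 ± 0.19 without standing apart.

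Of 11 JAK, STAT and IRF genes, 5 were higher and 1 was lower, against 6.63% and 6.79% of all genes. IRF7, the factor that amplifies type I interferon, had 11.80 log2 in T84, against 9.76 and 10.67 in HT29, 8.20 and 8.83 in CACO2, 6.49 and 6.71 in SKCO1, and 10.69 and 9.85 in HCC2998. IRF9, a DNA-binding subunit of the complex that acts in the nucleus, had 11.61 in T84 and 8.71 to 10.81 in the others. Both stood apart, with differences of 2.90 ± 0.41 and 2.15 ± 0.34 (SE, adjusted p = 0.00583 and 0.0085), and both were highest of the 10 lines. STAT3 was higher by 1.11 ± 0.19. Over the mean of all its probe sets STAT3 did not pass (adjusted p = 0.0505).

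Among 7 feedback inhibitors, TRIM21, a ubiquitin ligase that also binds antibody, had 9.62 log2 in T84 and 6.78 to 8.01 in the others. USP18, which removes ISG15 from proteins and dampens the receptor, had 8.64 and 5.75 to 7.96. TRIM21 stood apart by 1.73 and USP18, though higher, did not, and without the second SKCO1 array USP18 did not pass (adjusted p = 0.0504). PTPN2, a phosphatase of JAK and STAT proteins, lay at 9.33 in T84 and 9.69 to 10.82 in the others, and on another of its probe sets the difference was 0.02. The PTPN2 call was also lost over the mean of its probe sets and without the SKCO1 line or either SKCO1 array.

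Ligands gave few calls, and the count of receptors called depended on the probe set. Of 7 interferon ligands, 0 were higher in limma, also at an unadjusted p under 0.05, and 1 was lower. The shares called over all genes were 6.63% higher and 6.79% lower. IFNB1 lay at 4.82 log2 in T84 and 4.36 to 4.83 in the others, and IFNL1 at 5.24 and 4.71 to 5.47, all dim. IFNE lay at 3.80 in T84 and 3.69 to 7.15 in the others, level with HCC2998 and CACO2, and its call was lost without HT29, SKCO1 or either HCC2998 array (adjusted p up to 0.0957). Of 6 receptor genes, IFNLR1, a chain of the lambda interferon receptor, was higher by 0.94 ± 0.13 (SE, adjusted p = 0.00548), and at 8.26 it was equal to the SKCO1 mean of 8.26. Without HT29 it differed by 0.42 and did not pass (adjusted p = 0.103), which left 0 receptor genes called in limma. Where the probe set of largest interquartile range stood for each gene, 3 of the 6 receptors were higher and T84 stood apart in 1. The same counts held over sets without probes that can match several transcripts. Dim array signals cannot show whether a ligand is made at a low level.

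Genes of MHC class I antigen presentation, many of which interferon also induces, were higher in T84 in 12 of 18 and lower in 0. The shares over all genes were 6.63% and 6.79%, and the median difference of the 18 was 1.42 log2. T84 stood apart in 0 of them, and in the genes given here HCC2998 was close to T84 or above it. TAP1, a subunit of the peptide transporter, had 10.63 in T84, against 7.14 and 7.0 in HT29, 6.50 and 5.82 in CACO2, 8.03 and 7.98 in SKCO1, and 10.28 and 10.05 in HCC2998. HLA-B had 13.61 in T84 and 14.14 and 13.95 in HCC2998, against 9.93 to 11.14 in the other 3 lines. HLA-C had 13.89 in T84 and 14.01 and 13.83 in HCC2998, against 11.09 to 11.58. Without HCC2998, the line nearest to T84 in the genes given here, T84 stood apart in 9 of the 18. Over all genes it then stood apart as higher in 376, in place of 249. Probes of the HLA genes can match one another, and over sets without such probes 6 of 14 were higher and the median was 0.54.

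Chemokines did not follow as a group. Of 26 epithelial chemokines and cytokines, 5 were higher and 2 lower, against 6.63% and 6.79% of all genes. Their median difference was 0.06 log2. CXCL10, an interferon-induced attractant of T cells, was the gene of this list in which T84 stood apart, at 7.03 in T84 and 4.60, 4.84 and 6.15 as the lowest, median and highest of the others. CXCL1, an attractant of neutrophils, was called lower at 6.89 in T84, against 10.57 to 11.71 in SKCO1 and HCC2998 and 5.59 to 6.43 in HT29 and CACO2. Its call was lost without SKCO1 and without HCC2998 (adjusted p up to 0.290). TNFSF10, the death ligand TRAIL, lay at 7.97 in T84 and 4.01 to 9.02 in the others. Of 10 NF-kappaB feedback genes, 3 were higher and 2 lower, against 6.63% and 6.79% of all genes. Over sets without probes that can match several transcripts, 0 of 5 were called in limma, with a median difference of 0.71 log2. TNFAIP3, which removes activating ubiquitin chains, had 9.77 in T84 and 6.28 to 9.40 in the others, while TNFAIP2 stood apart below, at 5.50 and 6.51 to 9.76. Over the mean of its probe sets TNFAIP2 no longer stood apart.

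The receptors that trigger fluid secretion are the group for which T84 is best known. Of 20 secretagogue receptors and second messenger genes, 7 were higher and 4 lower, against 6.63% and 6.79% of all genes. T84 stood apart as higher in 3, against 1.26% of all genes, and was the lowest of the 5 MSS lines in 3. The differences ran from -1.37 to 4.65 log2 with a median of 0.31. Over the mean of all probe sets of a gene, 7 were higher and 5 lower, and T84 stood apart in 2. GUCY2C, the guanylate cyclase that binds guanylin and the heat-stable toxin, had 11.53 log2 in T84. The other cultures had 4.07 and 4.05 in HT29, 5.17 and 7.41 in CACO2, 8.15 and 8.04 in SKCO1, and 8.69 and 9.47 in HCC2998. It differed by 4.65 ± 0.68 (SE, adjusted p = 0.00647), and the MSI lines lay at 4.03 to 8.78, so T84 was highest of the 10.

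CHRM1, the muscarinic M1 receptor, had 6.71 log2 in T84 and 3.89 to 4.29 in the other MSS arrays, and no MSI line exceeded 4.27. PTGER4, a prostaglandin E2 receptor coupled to cyclic AMP, had 5.66 in T84, at the median of all values, and 3.63 to 4.62 in the others. An MSI line reached 9.55 for PTGER4, and its other probe set differed by -0.17. Chosen after their values were seen, VIPR1, the receptor of vasoactive intestinal peptide, was higher by 1.65 ± 0.28 and CHRM3, the muscarinic M3 receptor, by 1.27 ± 0.17 (SE, adjusted p = 0.0102 and 0.0045). CHRM3 lay at 9.02 in T84 and 9.22 in SKCO1, so that higher refers to the mean of the others.

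The chloride transport genes themselves differed little as a list. Of 32 measured, 4 were higher and 2 lower, against 6.63% and 6.79% of all genes, with a median difference of 0.09 log2. Over the alternatives 2 to 7 were higher and 1 to 5 lower. KCNN4, the calcium-activated potassium channel that sustains the drive for chloride exit, had 10.41 in T84, against 11.12 and 11.14 in SKCO1 and 5.30 to 6.19 in the other 3 lines. It was thus shared by T84 and SKCO1. CFTR, named after its values were seen, had 11.59 in T84, 11.70 in CACO2 and 9.07 to 10.25 in the other 3 lines. CLCA1, a secreted goblet cell protein that regulates calcium-activated chloride channels, had 6.44 in T84 and 4.0 to 4.98 in the others and stood apart.

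AQP3, a channel for water and glycerol, stood apart below. It had 5.89 log2 in T84, against 13.42 and 12.75 in HT29, 12.70 and 11.37 in CACO2, 12.01 and 11.94 in SKCO1, and 8.37 and 8.66 in HCC2998. The difference was -5.51 ± 0.45 (SE, adjusted p = 0.000696). T84 was near dim and the nearest line, HCC2998, was 2.63 above it. The lowest MSI line lay at 5.36, below T84.

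**Figure D3:**
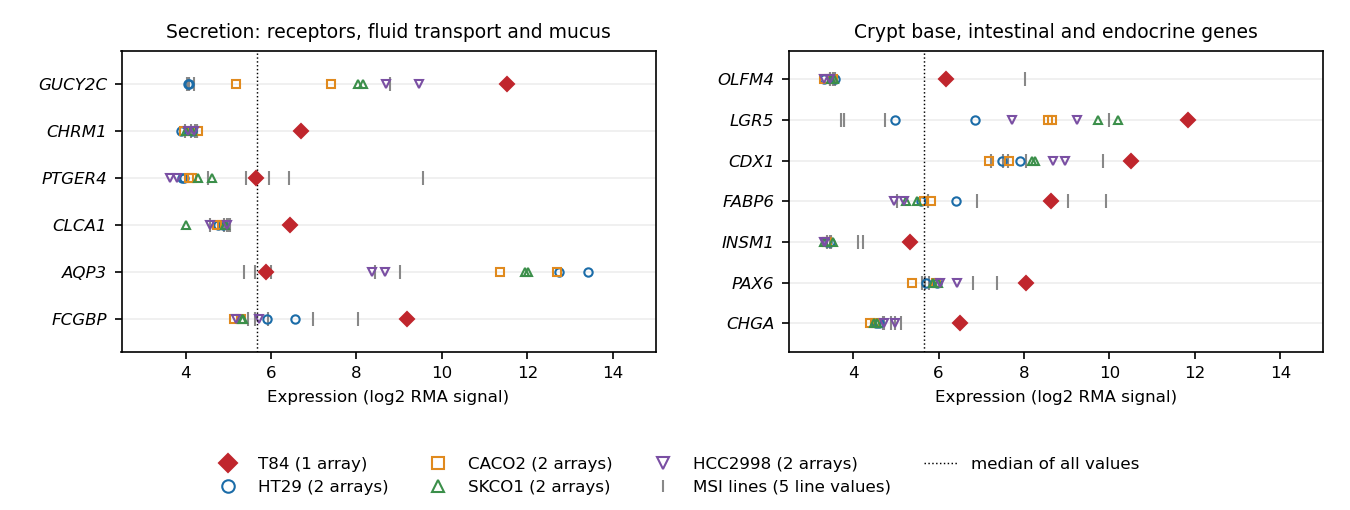
Genes of secretion and mucus on the left and of the crypt base, intestinal and endocrine programmes on the right. The x axis is log2 RMA signal, each symbol is 1 array of an MSS line, grey ticks are MSI line values, and the dotted line is the median of all values. GUCY2C at 11.53 and LGR5 at 11.84 lie above all other MSS arrays and MSI lines, and AQP3 at 5.89 lies below all other MSS arrays.

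Mucins and goblet cell genes moved both ways, with 9 of 34 higher and 5 lower, against 6.63% and 6.79% of all genes. Without the second SKCO1 array 6 were higher and 2 lower. FCGBP, a mucus protein secreted with MUC2, had 9.18 log2 in T84 and 5.13, 5.33 and 6.56 as the lowest, median and highest of the others, a difference of 3.62 ± 0.27 (SE, adjusted p = 0.000535). ST6GALNAC1, which caps mucin sugars with sialic acid, had 10.31 in T84 and 10.06 and 10.02 in SKCO1, against 4.70 to 6.70 in the other 3 lines. The lower genes included 3 trefoil peptides, TFF1, TFF2 and TFF3, of which TFF3, a product of goblet cells, had 6.86 in T84, 10.73 in CACO2 and 11.78 in SKCO1. The trefoil genes were named after their values were seen.

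Of 17 enteroendocrine genes, 3 were higher and 0 lower, against 6.63% and 6.79% of all genes, and T84 stood apart in all 3, against 1.26% of all genes. The median difference over the 17 was 0.18 log2, and 1 of 15 was higher over probe sets without suffixes. PAX6, a homeobox factor of hormone-producing cells, had 8.04 log2 in T84 and 5.37, 5.95 and 6.44 as the lowest, median and highest of the others. CHGA, a protein of secretory granules, had 6.50 in T84 and 4.40 to 4.97 in the others. INSM1, a zinc finger factor of endocrine precursors, had 5.34 and 3.31 to 3.52, so it was below the median of all values in T84 too. Its other probe set differed by 0.38 (adjusted p = 0.187), and each of the 3 genes was highest in T84 of all 10 lines.

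Among 16 intestinal transcription factors, 3 were higher and 1 lower, against 6.63% and 6.79% of all genes. CDX1, which drives intestinal identity, had 10.50 log2 in T84, against 7.49 and 7.90 in HT29, 7.19 and 7.66 in CACO2, 8.27 and 8.19 in SKCO1, and 8.69 and 8.96 in HCC2998. It stood apart, at 2.45 ± 0.23 above the mean (SE, adjusted p = 0.0013), and was highest of the 10 lines. FOXA2 had 10.69 in T84 and 9.73 and 10.54 in CACO2, against 4.87 to 7.64 in the other 3 lines. EHF, an epithelial ETS factor, had 12.32 in T84, within the 11.84 to 12.73 of HT29, SKCO1 and HCC2998, and only CACO2 was low, at 4.50 and 5.04. Without CACO2 the EHF difference was 0.03 (adjusted p = 0.943), and over the mean of its probe sets it did not pass (adjusted p = 0.082).

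Stem cell and Wnt target genes had 7 of 24 higher and 3 lower, against 6.63% and 6.79% of all genes, with a median difference of 0.10 log2. Over the alternatives 4 to 10 were higher and 1 to 5 lower. LGR5, the R-spondin receptor of crypt base stem cells, had 11.84 log2 in T84, against 6.85 and 4.99 in HT29, 8.57 and 8.65 in CACO2, 10.20 and 9.73 in SKCO1, and 7.72 and 9.24 in HCC2998. The difference was 3.60 ± 0.70 (SE, adjusted p = 0.0169), and without the second SKCO1 array it did not pass (adjusted p = 0.0509). OLFM4, another crypt base gene, had 6.17 in T84 and 3.31 to 3.58 in the others, with 8.03 in an MSI line. PROM1, the surface protein CD133, had 4.07 in T84, against 4.41 and 4.46 in HCC2998 and 11.24 to 12.89 in the other 3 lines, so T84 and HCC2998 were both dim.

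Brush border genes were higher in 5 of 17 and lower in 0, against 6.63% and 6.79% of all genes, with a median difference of 0.62 log2, and T84 stood apart in 0. The count of higher genes was 2 without either SKCO1 array, without the first HCC2998 array or with the probe set of largest interquartile range. CDH17, an intestinal cadherin, had 13.79 in T84 and 12.16 to 13.28 in CACO2, SKCO1 and HCC2998, against 7.46 and 6.43 in HT29. Without HT29 it did not pass (adjusted p = 0.0522). MISP, an actin-bundling protein, and ESPN, espin of microvilli, were called higher by 1.29 ± 0.30 and 0.66 ± 0.14 (SE). The MISP call was lost without CACO2 or any 1 array of SKCO1 or HCC2998 (adjusted p up to 0.107). That of ESPN was lost in 7 of 21 alternatives, among them probe sets without suffixes, where the difference was 0.12 (adjusted p = 0.763). Of 30 enterocyte genes, 4 were higher and 3 lower, against the same 6.63% and 6.79% of all genes. FABP6, the ileal bile acid-binding protein, had 8.64 in T84 and 4.95 to 6.41 in the other MSS arrays, and its other probe sets differed by -0.28 to 0.03. APOA1 was called lower only through CACO2, at 14.42 and 14.26. T84 had 5.98 and the other 3 lines 5.72 to 6.24, and without CACO2 the difference was 0.02.

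Among 39 genes of xenobiotic metabolism and transport, 8 were higher and 4 lower, against 6.63% and 6.79% of all genes. CYP2B6, a cytochrome P450, had 9.70 log2 in T84, against 8.08 and 7.48 in HT29 and 4.57 to 4.82 in the other 3 lines. It differed by 4.24 ± 0.23 (SE, adjusted p = 0.00016), and its other probe set by 0.04. GSTM3, a mu-class glutathione transferase, had 10.26 in T84 and 10.29 and 10.25 in CACO2, against 5.32 to 6.36 in the other 3 lines, but over probe sets without suffixes it differed by 0.43 and did not pass (adjusted p = 0.304). ABCB1, the efflux pump P-glycoprotein, named after its values were seen, had 10.17 in T84, 9.18 in CACO2 and 3.77 to 4.39 in the other 3 lines.

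Of 26 p53 target genes, 1 was higher and 5 were lower, against 6.63% and 6.79% of all genes, and 2 were lower without the SKCO1 line or either of its arrays. ZMAT3, an RNA-binding protein, had 5.78 log2 in T84 and 7.19, 8.03 and 8.58 as the lowest, median and highest of the others, and at least 8.69 in every MSI line. PHLDA3, an inhibitor of AKT, had 6.10 in T84 and 6.27 to 8.66 in the others. BAX, which permeabilises mitochondria, had 6.63 in T84 and 7.92 to 9.70 in the others, and its call was lost without the SKCO1 line or either array of SKCO1 or HCC2998 (adjusted p up to 0.0880). Mesenchymal genes were lower in 6 of 31 and higher in 3, against 6.79% and 6.63% of all genes. S100A4, a calcium-binding protein of motile cells, stood apart below, at 7.88 in T84 and 8.59 to 13.86 in the others. FN1, fibronectin, had 5.05 in T84, level with HT29 and HCC2998, and 10.50 to 13.03 in SKCO1 and CACO2. Over probe sets without suffixes FN1 differed by -0.31 and did not pass (adjusted p = 0.342).

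HOX genes, which mark position along the body axis, were higher in 6 of 28 and lower in 0, against 6.63% and 6.79% of all genes. The count was 3 of 24 over probe sets without suffixes and 3 to 10 over all alternatives. HOXD4 had 7.62 log2 in T84 and 4.73 to 5.41 in the other MSS arrays, and HOXC6 had 10.85 and 7.61 to 9.94. T84 stood apart in both and was highest of the 10 lines. Of 15 cancer-testis antigens, 2 were higher and both stood apart, against 6.63% and 1.26% of all genes. MAGEA6 had 7.97 in T84 and 3.87 to 4.79 in the other MSS arrays, and MAGEA12 had 6.57 and 3.80 to 4.20. Their probe sets can match several members of the MAGEA family, so the member cannot be told apart, and MSI lines reached 12.02 and 9.47. Of 30 cell cycle genes, 0 were called in limma, against 13.4% of all genes. At an unadjusted p under 0.05, 0 were higher and 2 lower.

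Differences were also unevenly placed along the genome, ordered by assembly GRCh38.p14. Over 12794 expressed genes with a mean at or over the median of all values, the median difference was 0.03 log2 and 9.29% were called lower. On chromosome 13 the median was -0.66 in T84, against -0.19 to 0.48 in the other lines by the same measure, and 89 of 217 genes (41.0%) were lower. On chromosome 18 it was -0.58 in T84, against -0.06 to 0.24, and 53 of 171 genes (31%) were lower. On chromosome X the median was 0.38 and 104 of 392 genes (26.5%) were higher, against 8.75% of expressed genes. Chromosome 12 had a median of 0.31, and 26 of its 683 genes stood apart as higher and 1 as lower, against 180 and 169 of the 12794 expressed genes. Over the alternatives the median ran from -0.78 to -0.57 on chromosome 13, -0.62 to -0.48 on chromosome 18, 0.29 to 0.48 on X and 0.20 to 0.39 on chromosome 12.

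**Figure D4:**
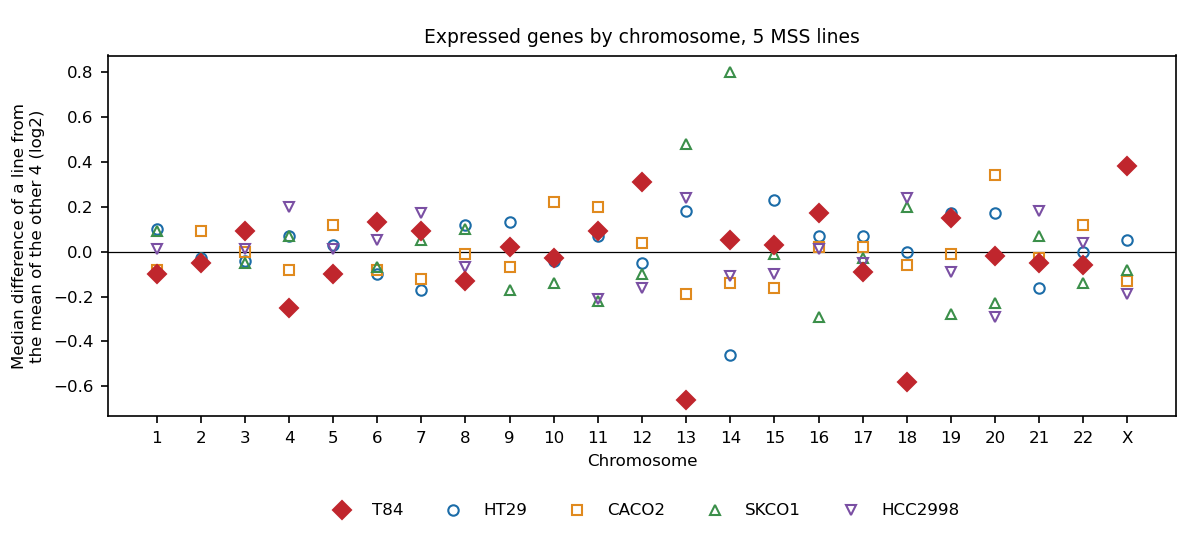
Median difference of each MSS line from the mean of the other 4, over expressed genes of each chromosome, in log2. Diamonds are T84 and open symbols the other lines, each from its line value. T84 is lowest on chromosomes 13 (-0.66) and 18 (-0.58) and highest on X (0.38) and 12 (0.31), and SKCO1 is highest on chromosome 14 (0.80).

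Some low genes were neighbours. On chromosome 3, SUMF1, SETMAR and BHLHE40 follow each other among expressed genes, and T84 stood apart below in all 3. SETMAR, a histone methyltransferase fused to a transposase, had 4.11 log2 in T84 and 5.25 to 7.72 in the other MSS arrays. The genes on either side were not at that level, with CRBN at 9.84 in T84 and 9.11 to 10.15 in the other line values, and EDEM1 at 8.89 and 9.29 to 10.0. All 3 were lowest in T84 of the 10 lines, with SETMAR at 6.23 to 7.57 in MSI lines. The other probe sets of SETMAR differed by -0.96 to -0.43, so its drop rests on 1 probe set, whose probes can match several transcripts.

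Near the end of chromosome 2, T84 stood apart below in 7 of 15 consecutive expressed genes from KIF1A to ING5, with a median difference of -1.31 log2. They were MTERF4, PPP1R7, HDLBP, SEPTIN2, FARP2, STK25 and ATG4B. SEPTIN2, a cytoskeletal GTPase, had 10.23 in T84 and 11.55 to 12.59 in the other MSS arrays, and HDLBP, an RNA-binding protein, had 9.61 and 10.87 to 12.08. T84 stayed well over the median of all values in both. The last 4 expressed genes of the chromosome, from GAL3ST2 to LINC01881, differed by 0.03 to 0.28. The runs were chosen after their values were seen.

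Further runs of 15 genes with low medians lay on chromosome 18 from PIAS2 to SKA1 (-1.56) and on chromosome 9 from ERMP1 to HAUS6 (-1.50). The highest run was on chromosome 12 from CCND2 to TAPBPL (0.99). T84 stood apart as higher in 180 and as lower in 169 of the expressed genes, and adjacent pairs among them are described with no number expected by chance. There were 13 pairs higher in both and 8 lower in both. The higher pairs included IFIT2 with IFIT3, IFIT3 with IFIT1, IFITM1 with IFITM3, OAS1 with OAS3 and IRF9 with REC8, which belong to known gene clusters or lie side by side, and GUCY2C with the histone gene H2AJ.

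**Figure D5:**
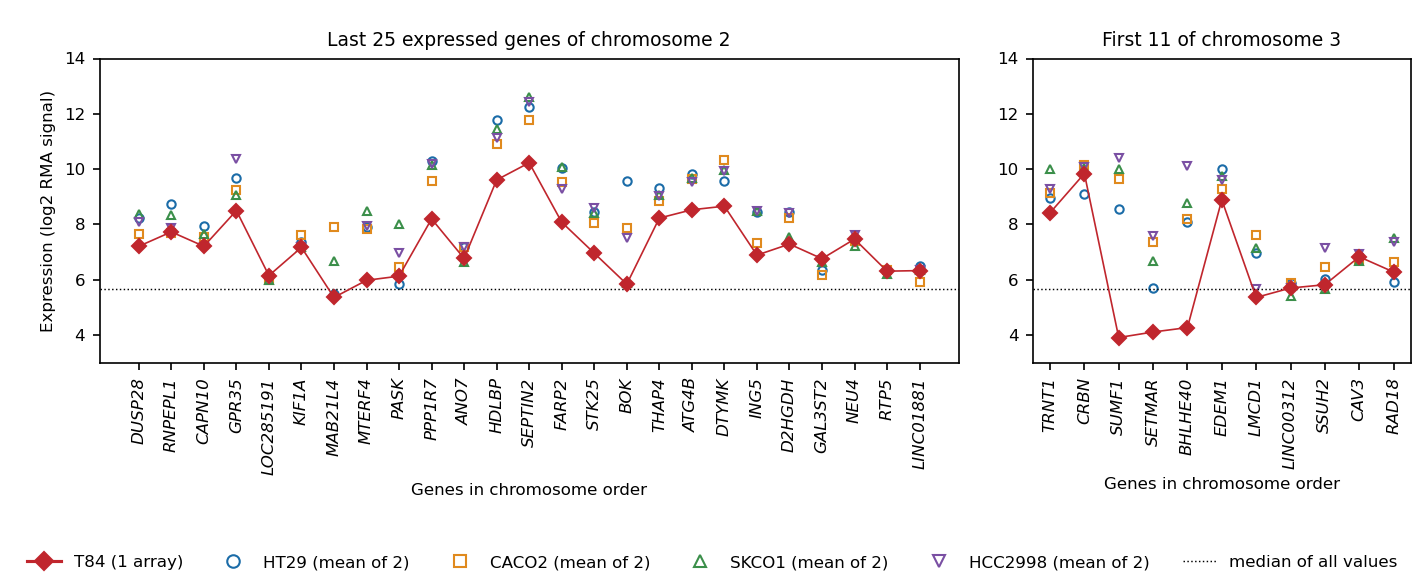
Genes in chromosome order at the end of chromosome 2 and the start of chromosome 3, expressed genes only. The y axis is log2 RMA signal, joined diamonds are T84, open symbols are means of 2 arrays of the other MSS lines, and the dotted line is the median of all values. SUMF1 (3.91), SETMAR (4.11) and BHLHE40 (4.27) drop below the dotted line in T84 while their neighbours CRBN and EDEM1 do not.

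The MSI lines, which were not used to choose the genes, show how far T84 also stands apart from the other lines of this series. Of the 249 genes in which T84 stood apart as higher, it was above all 5 MSI line values in 167 (67.1%), and by at least 1 log2 in 91. Of the 170 in which it stood apart as lower, it was below all 5 in 131 (77.1%), and by at least 1 log2 in 69. These shares start from genes in which T84 was already beyond the other MSS lines. Of all 4670 genes with T84 above the 4 other MSS line values, it was also above the MSI lines in 1844 (39.5%). Of all 3532 genes with T84 below the 4 other MSS line values, it was also below the MSI lines in 2319 (65.7%). These wider sets needed no call and no gap of 1 log2, so their shares are not a like baseline. Genes just inside the 1 log2 limit included MED12 at 9.70 log2 in T84 and 8.69 in HT29, and SAMHD1, which degrades nucleotides, at 9.63 in T84 and 8.62 in CACO2 and HCC2998. Just outside it were ABCB1, at 10.17 in T84 and 9.18 in CACO2, and ZNHIT1, at 9.55 in T84 and 10.54 in CACO2.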

How the data were processed

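RNA of 10 colon cancer lines was labelled and hybridised to Affymetrix HG-U133 Plus 2 arrays, 19 arrays in all, per the labels. The deposited values are log2 signals made with RMA, per the submitters' processing notes. Neither the RMA version nor the build behind the probe sets is given in the sources used here. RMA fits background, quantiles and probe effects over the arrays together, so values of 1 array depend on the others. No scanner files were used here.

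Of 54675 probe sets, 41091 name 1 gene in the platform annotation, 1801 name several and 11721 are unnamed. Where a gene had several probe sets naming it alone, the one brightest on average over the lines stood for it, which gave 19775 genes. Genes were fitted with limma 3.58.1 in R 4.3.3 over the 9 MSS arrays with a term per line (4 residual degrees of freedom), and T84 was set against the mean of the 4 other lines. Adjustment was by Benjamini-Hochberg over all genes. A second limma fit took 1 value per line. Named genes were the 12 largest gaps in each direction and, per list, those standing apart, filled to 3 with the smallest p. The members, lists and tests were chosen with earlier results of these data known. The script was tested on simulated data. P-values of the first fit measure the spread between duplicates, which may be technical, and those of the second the spread between lines. The number of arrays limits the precision.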

Additional observations from a re-analysis of the deposited data

Results flagged for a closer look

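In 14 of the 108 named genes, 1 of the 4 other MSS lines lay far from the other 3 by Dixon's criterion, which chance meets in about 1 of 20 groups. In these genes the mean of the others covers lines at different levels, except in CLCA1 and MAGEA6, in which all 4 were dim.

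CACO2 was the separate line in 6 genes. APOA1 had 5.98 log2 in T84, 14.34 in CACO2 and 5.73 to 6.22 in the other 3 lines. SLC2A3, a glucose transporter, lay at 13.15 in CACO2 and 4.39 to 4.56 in the other 3. LGALS4, an intestinal galectin, lay at 5.22 in CACO2 and 12.44 to 13.86 in the other 3. EHF had 12.32 in T84, 4.77 in CACO2 and 11.91 to 12.67 in the other 3. GXYLT2 had 9.62 in T84, 6.0 in CACO2 and 4.32 to 4.44 in the other 3. IFITM3 had 11.65 in T84, 6.21 in CACO2 and 10.02 to 10.45 in the other 3.

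HT29 was separate in CDH17, at 13.79 in T84, 6.95 in HT29 and 12.49 to 13.25 in the other 3 lines. It was also separate in CYP2B6, at 9.70 in T84, 7.78 in HT29 and 4.66 to 4.70 in the other 3. MAGEA6 had 7.97 in T84, 4.68 in HT29 and 4.05 to 4.10 in the other 3. CA12, a carbonic anhydrase, lay at 12.08 in HT29 and 7.53 to 8.07 in the other 3.

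SKCO1 was separate in KCNN4, at 10.41 in T84, 11.13 in SKCO1 and 5.75 to 6.10 in the other 3 lines, and in CLCA1, at 6.44, 4.46 and 4.77 to 4.81. For CLCA1 the gap lies between the SKCO1 arrays, at 4.0 and 4.92, and the second lies within the 4.57 to 4.98 of the other lines. HCC2998 was separate in HLA-C, at 13.89 in T84, 13.92 in HCC2998 and 11.16 to 11.34 in the other 3. The same line was separate in IFNGR1, a chain of the interferon gamma receptor, at 12.30 against 10.83 to 10.91.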

How the results depend on the processing

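Leaving out 1 array or line gave 762 to 1640 higher and 763 to 1737 lower genes in place of 1311 and 1342, with the lowest counts without SKCO1. With the spread of all 19 arrays, 2034 genes were lower. T84 stood apart as higher in 214 to 397 genes and as lower in 146 to 295 over those omissions, and as lower in 272 with the probe set of largest interquartile range. In the fit over lines, 3 higher genes became 0 among bright genes only, 7 after a second quantile normalization, 11 with the mean of probe sets, 17 without suffixed probe sets, 32 with trend and robust eBayes and 2 with first cultures only. Omissions gave 0 to 8, and 0 genes were lower under every alternative in limma. Signs turned for PTPN2 (0.02, other probe set), APOA1 (0.02 without CACO2, from -2.85 over omissions) and SLC2A3 (-0.02, mean of probe sets); the causes were not tested. Of 103 called named genes, 71 kept their call under every alternative. Of the 71 named genes in which T84 stood apart, it did so under every alternative in 44. With culture number as a replicate block, 1374 genes were higher and 1300 lower, and 251 and 167 stood apart. Deviations of same-numbered cultures correlated at -0.15 to 0.23, over 0.1 in 3 of 6 pairs. The labels do not say whether a number marks cultures handled together, and these correlations cannot decide it. The samples were not treated as paired in the main fit. T84, as 1 array, could not be left out, and dim signals bound only what the array can show.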
